A study of Mus musculus with 8 samples.

Results

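Multipotent progenitors that seed the thymus carry cytokine receptors and transcription factors which T cell precursors switch off as they commit. The 10 genes described here, Kit, Flt3, Cd93, Erg, Nfe2, Gata2, Spi1, Bcl11a, Mef2c and Cpa3, are receptors, transcription factors and a protease of such progenitors. They were chosen by name, with earlier results of these data known. Every probe set (a group of short probes for 1 transcript) that the array's annotation gave to 1 of them alone was taken. This gave 27 probe sets for the 10 genes, among 34945 probe sets for 18193 genes on the array. Flt3, Nfe2, Spi1 and Cpa3 had 1 probe set each, and the other 6 genes had several.

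Expression was measured in mouse DN3 thymocytes on 8 Affymetrix arrays, 2 for each of 4 groups. The groups were wild-type cells (WT) and Ikaros-deficient cells (IkL/L), each exposed for 16 h either to DMSO as the vehicle or to MRK-003, a gamma-secretase inhibitor (GSI), at a dose labelled as 5 mM. IkL/L is known as a hypomorphic allele of Ikzf1, the gene of the zinc finger factor Ikaros. All 4 groups came from thymocytes depleted of lineage-positive cells and grown on OP9 DL1, a stromal line that displays a Delta-like Notch ligand. DN3 cells (Lin-CD44-CD25+) were sorted after the culture, so the sort excluded CD44-positive cells on every array, while CD25, the product of the Notch target Il2ra, was used in the sort. The strain, age and number of the mice, and whether replicates came from separate animals or cultures, are not given in the sources used here. The p-values therefore measure only the spread between these arrays, which may be technical, and the number of arrays limits the precision.

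Notch signalling begins when a ligand on a neighbouring cell leads gamma-secretase to free the intracellular part of the receptor, which then acts with the DNA-binding factor RBPJ. In the thymus this signal drives the T cell programme and holds other fates in check. Kit binds stem cell factor and Flt3 binds Flt3 ligand, and both are receptor tyrosine kinases of early progenitors. CD93 is a surface glycoprotein of early haematopoietic cells. Erg is an ETS factor of stem cells, Nfe2 is the haematopoietic subunit of NF-E2, Gata2 is a stem cell and mast cell factor, and Spi1 encodes PU.1, which drives myeloid fates. Bcl11a and Mef2c are needed for lymphoid, above all B cell, development, and Cpa3 encodes carboxypeptidase A3, a protease stored in mast cell granules and also expressed in early progenitors and T cell precursors.

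Promoter sequences are shown for the genes on which the results turn most, taken from RefSeq on GRCm38.p6 as the 250 bases before and the 50 bases after a start site. Cpa3 is shown because it had the largest response to GSI among the 10 genes, Erg because it was the member called as lower in IkL/L, and Bcl11a because its probe sets gave different answers. The Cpa3 promoter lies at chr3:20242132-20242431 on the minus strand, that of Erg at chr16:95459299-95459598 on the minus strand (1 of 3 start sites listed), and that of Bcl11a at chr11:24080445-24080744 on the plus strand. Capitals mark GATAA, a core of GATA factor sites, and TGGGAA, a core that Ikaros and RBPJ sites share, on either strand. On the opposite strand these read TTATC and TTCCCA.
Cpa3: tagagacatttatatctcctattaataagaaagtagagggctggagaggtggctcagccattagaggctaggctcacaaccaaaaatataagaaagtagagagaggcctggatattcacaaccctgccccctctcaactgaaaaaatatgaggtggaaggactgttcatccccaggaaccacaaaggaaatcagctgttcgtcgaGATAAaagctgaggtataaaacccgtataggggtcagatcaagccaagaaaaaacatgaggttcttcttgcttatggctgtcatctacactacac
Erg: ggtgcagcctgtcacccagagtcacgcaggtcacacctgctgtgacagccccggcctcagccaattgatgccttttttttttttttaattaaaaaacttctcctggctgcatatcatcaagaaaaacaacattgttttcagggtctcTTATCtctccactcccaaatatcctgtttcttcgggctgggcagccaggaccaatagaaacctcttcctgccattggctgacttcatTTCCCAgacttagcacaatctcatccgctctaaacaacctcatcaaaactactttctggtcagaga
Bcl11a: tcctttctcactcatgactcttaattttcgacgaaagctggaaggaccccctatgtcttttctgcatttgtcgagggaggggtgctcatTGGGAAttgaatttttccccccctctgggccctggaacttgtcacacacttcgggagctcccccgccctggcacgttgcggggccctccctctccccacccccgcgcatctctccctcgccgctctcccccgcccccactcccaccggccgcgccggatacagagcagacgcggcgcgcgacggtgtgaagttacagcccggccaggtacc

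Of the 10 genes, 7 had promoters in the table, 13 promoters in all. TGGGAA occurred in the promoters of 2 of these 7 genes. In Erg it lay on the opposite strand, 16 bases before the start, and in Bcl11a on the same strand, 161 bases before the start. It was found in 25.6% of all 32851 promoters of the table, and 28.3% of genes had it in at least 1 promoter. GATAA occurred in those of Cpa3 (same strand, 45 bases before the start), Erg (opposite strand, 103 bases before) and Mef2c, and in 25.4% of all promoters and 28.4% of genes. TGAGTCA, a core of AP-1 and NF-E2 sites searched on both strands, was found in promoters of 0 of the 7 genes and in 5.2% of all promoters. None of these motifs overlaps another in the 3 sequences printed. A match is a description of letters and not a site.

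Values are log2 expression after RMA, a summary made by the submitters, so a difference of 1 is a 2-fold difference. On this scale the median gene, on its brightest probe set, had a mean level of 6.28. Of the 27 probe sets, which include dimmer ones of the same genes, 19 lay below this level. For each gene the probe set with the highest mean was used, as for every gene of the array. Differences are given with their standard error (SE) from limma, a linear model fitted to all genes and all 8 arrays, and a called gene is one with an adjusted p (Benjamini-Hochberg, over all 18193 genes) below 0.05. Dtx1, a Notch target, lay between 11.74 and 12.09 on the 4 DMSO arrays and between 7.04 and 7.96 on the 4 GSI arrays. The DN3 markers Il2ra, Ptcra, Rag1, Cd3e and Bcl11b all lay above the median gene. With GSI, averaged over the genotypes, Il2ra fell by 2.28 ± 0.11 on the log2 scale (limma adjusted p = 7.16e-05) and Ptcra, the pre-T cell receptor alpha chain, fell by 1.99 ± 0.11 (adjusted p = 0.000119), each also called in both genotypes. Of 23 genes of DN3 cells and the T lineage 8 fell and 2 rose, against 12.5% and 10.8% of all genes, and the 2 became 1 without WT DMSO replicate 1, IkL/L DMSO replicate 1 or IkL/L GSI replicate 1. These falls moved with the members' response to GSI, and their part in it was not tested. Ikzf1 differed between IkL/L and WT under DMSO by a log2 value of -0.90 ± 0.14 (limma adjusted p = 0.0222), although its probes could not be placed relative to the mutation.

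GSI raised 6 of the 10 genes, Kit, Cd93, Erg, Nfe2, Mef2c and Cpa3, when the responses of both genotypes were averaged, while Flt3, Gata2, Spi1 and Bcl11a were not called on the probe sets used. Over all genes 10.8% were called as higher in this comparison and 23.3% in either direction. The members' median log2 difference was 0.86, against a median of 0.00 over all genes. In IkL/L the same 6 genes were called as higher (7.7% of all genes were), with a median difference of 1.27 against -0.05 over all genes. In WT 1 of the 10, Cpa3, was called as higher (2.31% of all genes were), with a median difference of 0.45 against 0.04. At an unadjusted p below 0.05 the count in WT was 4 of the 10, and 3839 of the 18193 genes had such a p in this comparison.

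**Figure D1:**
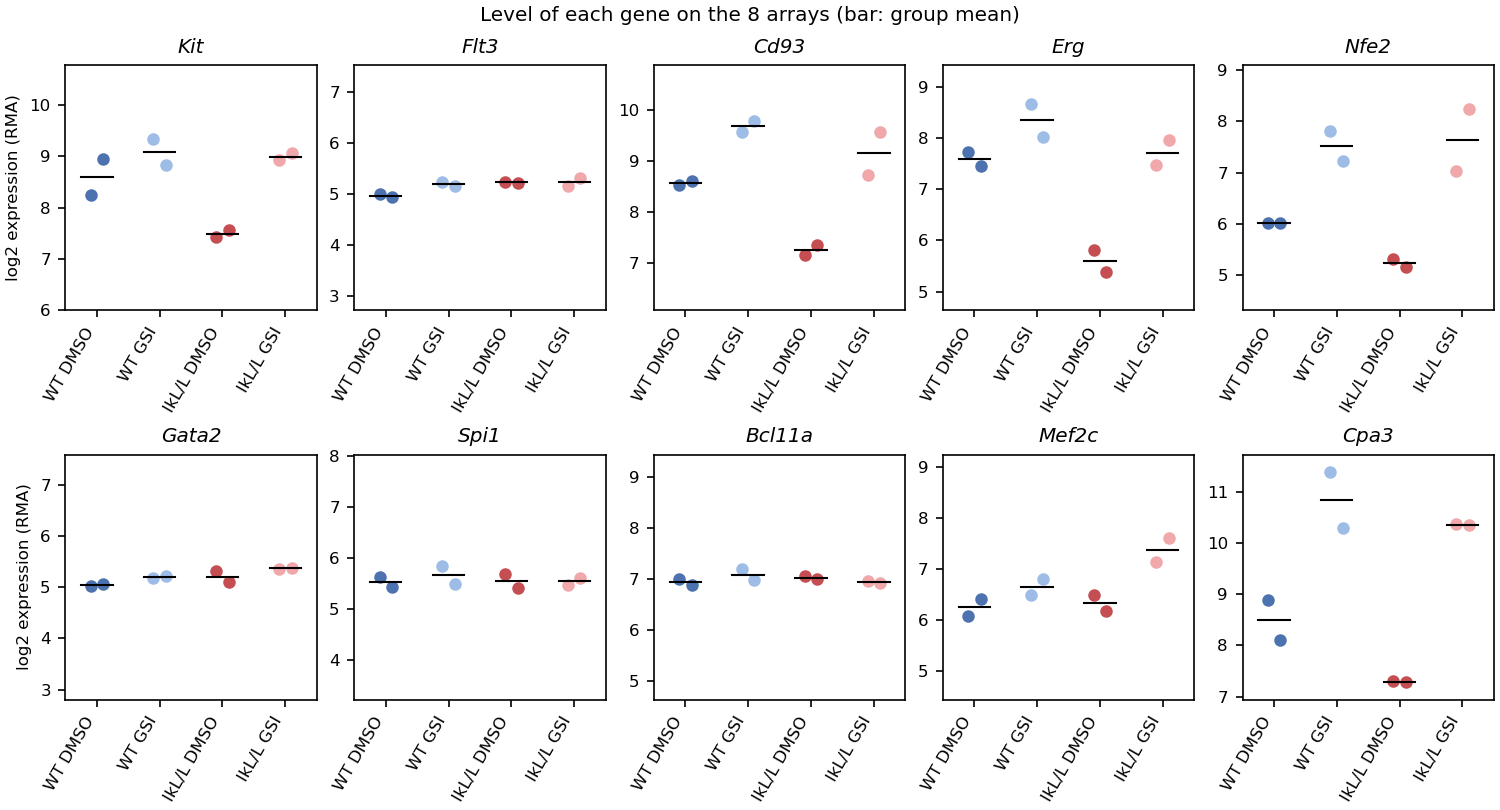
Level of each of the 10 genes on every array, as log2 expression on the vertical axis in the 4 groups on the horizontal axis. Points are arrays and bars are group means of 2 arrays; Kit, Cd93, Erg, Nfe2 and Cpa3 share a low point on the IkL/L DMSO arrays and higher values under GSI, while Flt3, Gata2, Spi1 and Bcl11a stay within a log2 range of 0.42.

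Among the receptors, Kit stood in WT at 8.24 and 8.95 with DMSO and at 9.35 and 8.84 with GSI, and in IkL/L at 7.42 and 7.55 with DMSO and at 8.93 and 9.06 with GSI. The IkL/L DMSO arrays were the lowest of the 8 and did not overlap any other group, whereas the WT groups overlapped. The log2 difference between GSI and DMSO was 1.51 ± 0.27 in IkL/L (adjusted p = 0.00793), a 2.85-fold rise, and 0.50 ± 0.27 in WT (adjusted p = 0.364, 95% interval from -0.13 to 1.13). Averaged over the genotypes it was 1.00 ± 0.19 (adjusted p = 0.00717). The call in IkL/L was lost without IkL/L DMSO replicate 1 or IkL/L GSI replicate 2 (adjusted p up to 0.0722), while that of the average held without each array in turn. The other probe set of Kit, 1415900_a_at, was dimmer, between 5.45 and 6.31, and rose by 0.56 on average in the fit over all probe sets (adjusted p = 0.0238). On that probe set WT and IkL/L had nearly the same means under DMSO, 5.62 and 5.61, so the low IkL/L DMSO values of 1452514_a_at were not seen there.

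Cd93 stood in WT at 8.53 and 8.62 with DMSO and at 9.58 and 9.79 with GSI, and in IkL/L at 7.17 and 7.35 with DMSO and at 8.73 and 9.57 with GSI. GSI arrays were above DMSO arrays in both genotypes with no overlap, and all 4 GSI arrays were above all 4 DMSO arrays. The log2 difference was 1.89 ± 0.27 in IkL/L (adjusted p = 0.0033), 1.11 ± 0.27 in WT (adjusted p = 0.0533, just short of the threshold) and 1.50 ± 0.19 on average (adjusted p = 0.00122). A second probe set, 1419589_at, ran from 7.09 to 9.25 with the same order of groups and rose by 1.60 in IkL/L (adjusted p = 0.0122) in a fit over all 34945 probe sets, in which 13% of them were called there. The remaining 3 probe sets of Cd93 lay between 3.67 and 5.10 on every array, below the median gene. A mean over all 5 probe sets therefore gave a smaller average rise of 0.59, which was still called.

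Flt3 stood in WT at 5.01 and 4.95 with DMSO and at 5.25 and 5.17 with GSI, and in IkL/L at 5.24 and 5.23 with DMSO and at 5.17 and 5.31 with GSI. All 8 values lay below the median gene and within a log2 range of 0.36, so this probe set showed little signal in any group. The average log2 difference was 0.12 ± 0.09 (adjusted p = 0.425), with a 95% interval from -0.09 to 0.32. In IkL/L the interval of the response ran from -0.29 to 0.30. With so little signal the interval describes this probe set and does not bound a change in Flt3 RNA.

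Among the transcription factors, Erg stood in WT at 7.74 and 7.45 with DMSO and at 8.67 and 8.04 with GSI, and in IkL/L at 5.82 and 5.39 with DMSO and at 7.49 and 7.96 with GSI. IkL/L DMSO stood below every other array, and of the IkL/L GSI arrays 1 lay within the range of WT DMSO and 1 above it. The log2 difference between GSI and DMSO was 2.12 ± 0.28 in IkL/L (adjusted p = 0.00259), a 4.34-fold rise, and 0.76 ± 0.28 in WT (adjusted p = 0.17). On average it was 1.44 ± 0.20 (adjusted p = 0.00171), and this call and that in IkL/L held without each array in turn. The second probe set of Erg, 1425370_a_at, lay between 4.74 and 5.86, and its average difference of 0.36 was not called (adjusted p = 0.26).

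Nfe2 stood in WT at 6.02 and 6.02 with DMSO and at 7.81 and 7.22 with GSI, and in IkL/L at 5.31 and 5.15 with DMSO and at 7.04 and 8.25 with GSI. The gene lay below the median gene on all 4 DMSO arrays and above it on all 4 GSI arrays. Its log2 difference was 2.42 ± 0.37 in IkL/L (adjusted p = 0.0041), 1.50 ± 0.37 in WT (adjusted p = 0.0526) and 1.96 ± 0.26 on average (adjusted p = 0.0014). The calls in IkL/L and on average held without each array in turn, although the IkL/L GSI replicates lay 1.21 apart.

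Mef2c stood in WT at 6.09 and 6.42 with DMSO and at 6.49 and 6.80 with GSI, and in IkL/L at 6.49 and 6.18 with DMSO and at 7.13 and 7.61 with GSI. Both IkL/L GSI arrays were above the other 6. The log2 difference was 1.03 ± 0.24 in IkL/L (adjusted p = 0.02), 0.39 ± 0.24 in WT (adjusted p = 0.412) and 0.71 ± 0.17 on average (adjusted p = 0.0162). The call in IkL/L was lost without IkL/L DMSO replicate 1 or 2 or IkL/L GSI replicate 2 (adjusted p up to 0.143). The call of the average was lost without WT DMSO replicate 1, IkL/L DMSO replicate 2 or IkL/L GSI replicate 2 (adjusted p up to 0.0705). Of the 4 dimmer probe sets of Mef2c, 1421028_a_at rose in IkL/L by 0.50 (adjusted p = 0.0376) in the fit over all probe sets, and the other 3 were not called in that comparison.

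Gata2 lay between 5.02 and 5.39 and Spi1 between 5.41 and 5.84 on all 8 arrays, below the median gene in every sample. The average log2 difference between GSI and DMSO was 0.16 ± 0.09 for Gata2 (adjusted p = 0.269, 95% interval from -0.05 to 0.38). For Spi1 it was 0.07 ± 0.13 (adjusted p = 0.778, 95% interval from -0.22 to 0.36). Gata2 values under GSI were above those under DMSO within each genotype, which 24.2% of all genes were in WT and 26.5% in IkL/L. The second probe set of Gata2, 1428816_a_at, lay between 3.75 and 4.44.

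Cpa3 stood in WT at 8.89 and 8.10 with DMSO and at 11.40 and 10.31 with GSI, and in IkL/L at 7.30 and 7.28 with DMSO and at 10.38 and 10.36 with GSI. Its 4 GSI arrays were all above its 4 DMSO arrays, which held for 9.6% of all genes and for 4 of the 10 members (Cd93, Nfe2, Mef2c and Cpa3). The log2 difference was 3.08 ± 0.37 in IkL/L (adjusted p = 0.00169), an 8.44-fold rise, and 2.36 ± 0.37 in WT (adjusted p = 0.0145), a 5.12-fold rise. On average it was 2.72 ± 0.26 (adjusted p = 0.000412). The call in WT was lost without WT DMSO replicate 1 or 2 (adjusted p up to 0.0713) and in a fit of the 4 WT arrays alone, in which 1 gene of the array was called.

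**Figure D2:**
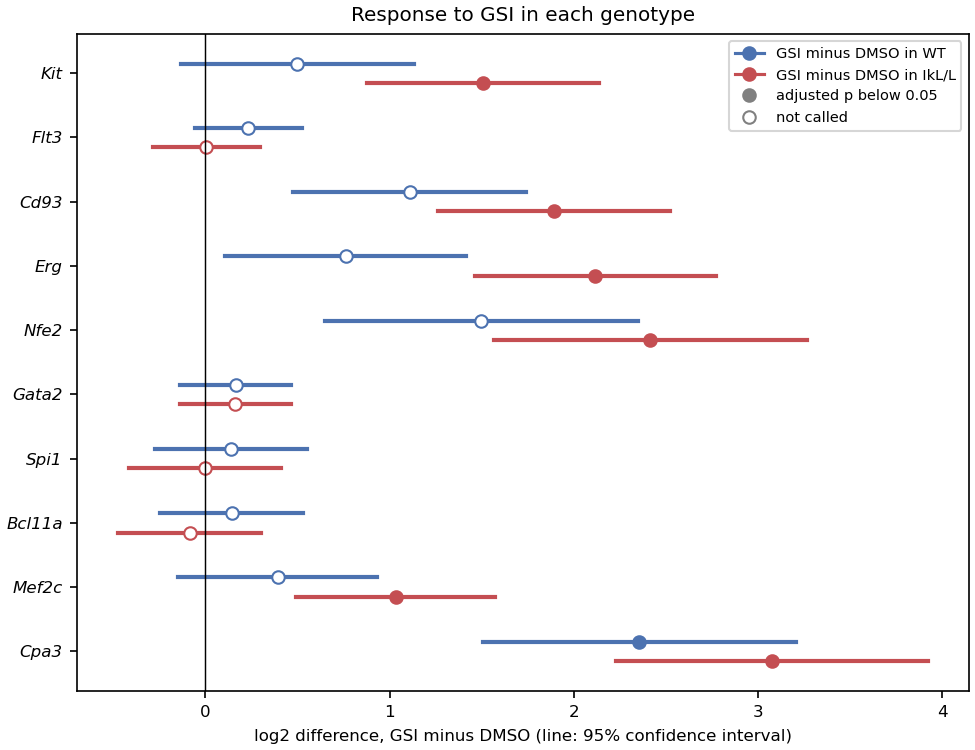
Log2 difference between GSI and DMSO for each of the 10 genes in WT (blue) and IkL/L (red). Points are limma estimates, lines are 95% confidence intervals and filled points have an adjusted p below 0.05; Cpa3 is filled in both genotypes, and Kit, Cd93, Erg, Nfe2 and Mef2c in IkL/L alone, with the difference between genotypes not called for any of them.

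In bulk RNA of sorted cells, a change in the share of cells that express a gene and a change in RNA per cell cannot be told apart. The 3' minus 5' probe difference of the GAPDH control was read as a rough measure of RNA quality. RNA amounts are not tied to samples, so degradation and labelling cannot be told apart in it. It stood at 1.71 and 2.12 in WT DMSO and at 1.87 and 2.47 in IkL/L DMSO. With GSI it stood at 2.20 and 3.08 in WT and at 3.09 and 3.03 in IkL/L. This difference was thus higher on the GSI arrays in both genotypes, so using it as a covariate cannot separate it from GSI. With this value as a covariate the average differences were 3.51 for Cpa3, 2.38 for Nfe2, 2.03 for Erg, 1.33 for Cd93 and 1.06 for Kit, all still called, while that of Mef2c, 0.59, was not (adjusted p = 0.16). The mean level of 24 stromal genes differed more between replicates than between treatments, from 6.67 to 8.20 in WT GSI, and was higher in replicate 1 than in replicate 2 of every group. With it as a covariate all 6 members stayed called on average.

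The response was not shown to differ between the genotypes for any of the 10 genes. The log2 difference between the IkL/L and the WT response was 1.35 ± 0.40 for Erg (unadjusted p = 0.00962, adjusted p = 0.665), 1.01 ± 0.39 for Kit (adjusted p = 0.812) and 0.92 ± 0.52 for Nfe2 (adjusted p = 0.869). By limma 0 of the 10 were called, and 0.044% of all genes (8 genes) were called. An unadjusted p below 0.05 was reached by 2 of the 10 and by 1089 of the 18193 genes. For Cpa3 the difference was 0.72 ± 0.52 with a 95% interval from -0.48 to 1.92, and for Cd93 0.78 ± 0.39 with an interval from -0.11 to 1.68. These 2 intervals are wide and leave room for a smaller, an equal or a larger response in IkL/L. Those of Erg (0.43 to 2.28) and Kit (0.12 to 1.90) left out 0, but none of these intervals is adjusted for the number of genes.

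Under DMSO, without the inhibitor, Ikaros-deficient cells had lower Erg than wild-type cells on the brighter of its 2 probe sets. The log2 difference was -1.99 ± 0.28 (adjusted p = 0.0146, 95% interval from -2.64 to -1.33), a 3.96-fold lower level. Erg was the 1 member of 10 called, and 1.03% of all genes were called as lower (1.74% in either direction). Leaving out any 1 of the 4 DMSO arrays ended the call (adjusted p up to 0.147), with a difference that stayed between -2.20 and -1.77 over the fits without 1 array. The other probe set, 1425370_a_at, differed by -0.30 and was not called (adjusted p = 0.899), and with the mean over both probe sets the difference was -1.14 and the call was lost (adjusted p = 0.104). Cd93 (-1.32 ± 0.27, adjusted p = 0.0641), Cpa3 (-1.21 ± 0.37, adjusted p = 0.23), Kit (-1.11 ± 0.27, adjusted p = 0.121) and Nfe2 (-0.79 ± 0.37, adjusted p = 0.546) were not called. For these 4 genes and Erg, both IkL/L DMSO arrays lay below both WT DMSO arrays, which 17.4% of all genes did.

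Under GSI 0 of the 10 genes were called between the genotypes by limma, and 1.46% of all genes were called. An unadjusted p below 0.05 was reached by 1 of the 10 (Mef2c) and by 1946 of the 18193 genes. Erg differed by -0.63 ± 0.28 (adjusted p = 0.487), Cd93 by -0.53 ± 0.27 (adjusted p = 0.557) and Kit by -0.10 ± 0.27 (adjusted p = 0.949). Mef2c was the member with the largest positive value, 0.72 ± 0.24 (adjusted p = 0.278). Each genotype comparison shares its arrays with the GSI comparisons, so a low IkL/L DMSO value enters both the genotype difference under DMSO and the response to GSI in IkL/L.

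**Figure D3:**
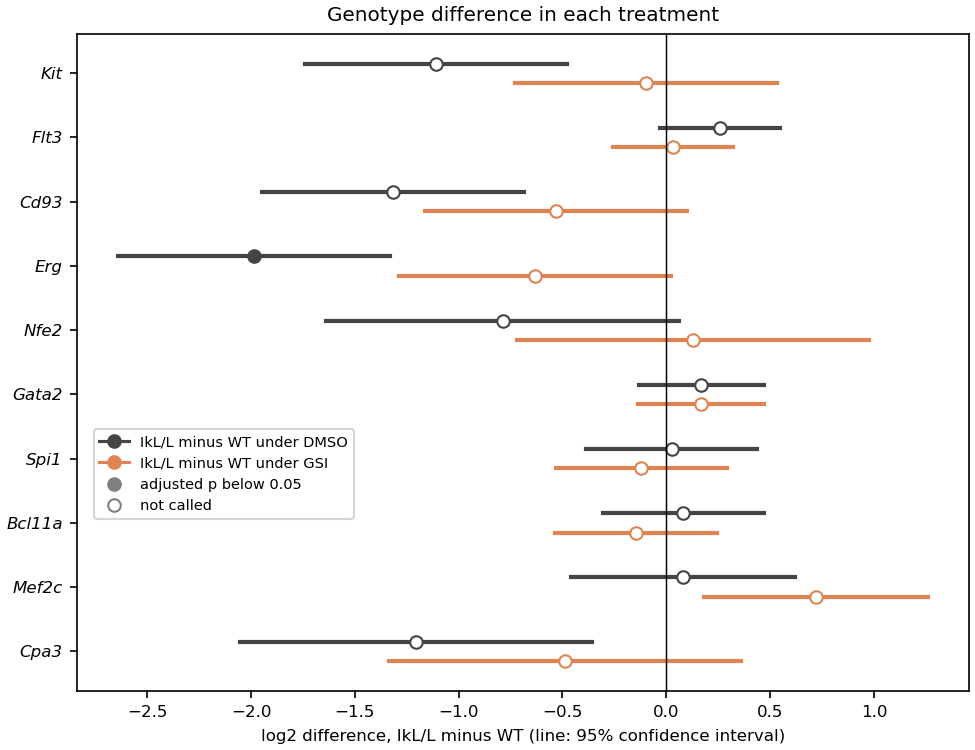
Log2 difference between IkL/L and WT for each of the 10 genes under DMSO (dark) and under GSI (orange). Points are limma estimates, lines are 95% confidence intervals and the filled point has an adjusted p below 0.05; Erg under DMSO, at -1.99, is the one filled point.

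Bcl11a is represented by 7 probe sets that did not behave alike. The brightest, 1447335_x_at, stood in WT at 7.01 and 6.88 with DMSO and at 7.20 and 6.98 with GSI, and in IkL/L at 7.06 and 7.0 with DMSO and at 6.96 and 6.93 with GSI. These values were flat, and the average difference between GSI and DMSO was 0.03 ± 0.12 (adjusted p = 0.909). The suffix _x_at marks a probe set in which some probes also match other transcripts.

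The next brightest probe set of Bcl11a, 1419406_a_at, stood in WT at 6.37 and 6.35 with DMSO and at 6.39 and 6.37 with GSI, and in IkL/L at 5.28 and 5.17 with DMSO and at 5.94 and 6.24 with GSI. The WT arrays were nearly equal, and the IkL/L DMSO arrays lay below all others. With _x_at probe sets left out for every gene, a choice made after seeing the data, this probe set stood for Bcl11a among 18093 genes. It was then lower in IkL/L than in WT under DMSO by -1.14 ± 0.16 (adjusted p = 0.0141; 1.74% of genes were called) and rose under GSI in IkL/L by 0.87 ± 0.16 (adjusted p = 0.00876; 16.5% were called). Averaged over the genotypes it rose by 0.44 ± 0.11 (adjusted p = 0.0249; 23% were called), which made 7 members called on average. In WT its difference was 0.02 ± 0.16 (adjusted p = 0.971), and the difference between the responses, 0.85 ± 0.23, was not called (adjusted p = 0.614). The reading of Bcl11a thus turned on the probe set taken to represent it.

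Probe set 1457072_at of Bcl11a stood in WT at 4.71 and 5.38 with DMSO and at 3.82 and 4.33 with GSI, and in IkL/L at 2.88 and 3.11 with DMSO and at 3.57 and 3.46 with GSI. Under DMSO it was lower in IkL/L by -2.05 (adjusted p = 0.0147) in the fit over all probe sets, in which 0.853% of probe sets were called. Probe set 1456632_at ran from 4.11 to 5.85 and was lowest on the IkL/L DMSO arrays, with a difference of -1.32 that was not called (adjusted p = 0.109). The other 3 probe sets lay between 2.85 and 3.72. Of these, 1426552_a_at rose with GSI on average by 0.38 in the same limma fit (adjusted p = 0.0197), and the others were not called. Over all 27 probe sets of the 10 genes, 11 were called with GSI on average, 11 as higher and 0 as lower. Of all probe sets on the array, 19.2% were called in either direction. Under DMSO 3 of the 27, 1 of Erg and 2 of Bcl11a, were called as lower in IkL/L and 0 as higher.

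**Figure D4:**
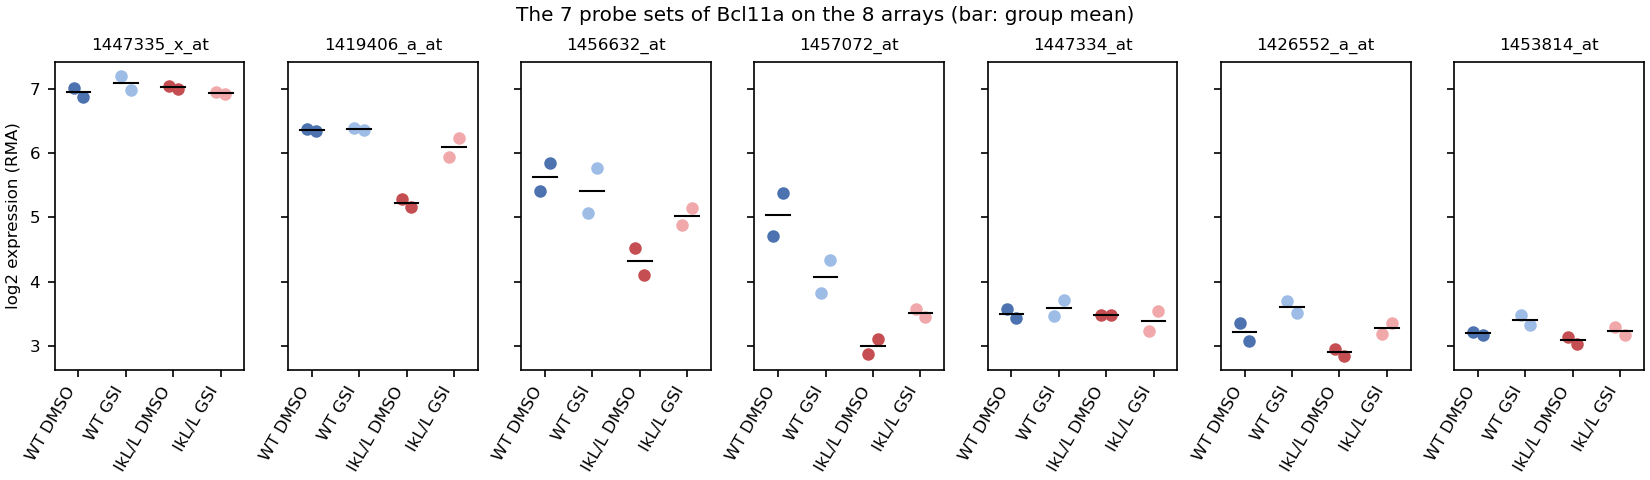
Log2 expression of the 7 probe sets of Bcl11a on the 8 arrays, in the 4 groups, on a shared vertical axis. Points are arrays and bars are means of 2 arrays. 1447335_x_at stays between 6.88 and 7.20, while 1419406_a_at, 1456632_at and 1457072_at have their lowest values in IkL/L DMSO. The dim probe sets 1426552_a_at and 1453814_at also have their lowest values there, by smaller margins.

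Cpa3, Kit and Gata2 are also genes of mast cells, so 18 other genes of mast cells and basophils were read beside them. On average over the genotypes 2 of the 18 rose, Mitf by 0.84 ± 0.14 (adjusted p = 0.00381) and Srgn by 0.77 ± 0.11 (adjusted p = 0.00189), and none was called as lower, a share close to the 10.8% of all genes called as higher. Mitf encodes a factor of mast cells and melanocytes, and Srgn encodes serglycin, a granule proteoglycan that many leukocytes make. The list's median difference was 0.05, against 0.00 over all genes. The 6 defining markers, Fcer1a, Ms4a2, Cma1, Mcpt4, Mcpt8 and Hdc, all lay below the median gene. Fcer1a, a chain of the IgE receptor, was between 2.93 and 3.28 on the 8 arrays, and the mean level of the list was between 4.89 and 5.15. Mitf in IkL/L GSI stood at 6.79 and 7.36, above the range from 5.21 to 5.74 of the other arrays, and was higher than in WT GSI by 1.55 ± 0.20 (adjusted p = 0.00887).

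**Figure D5:**
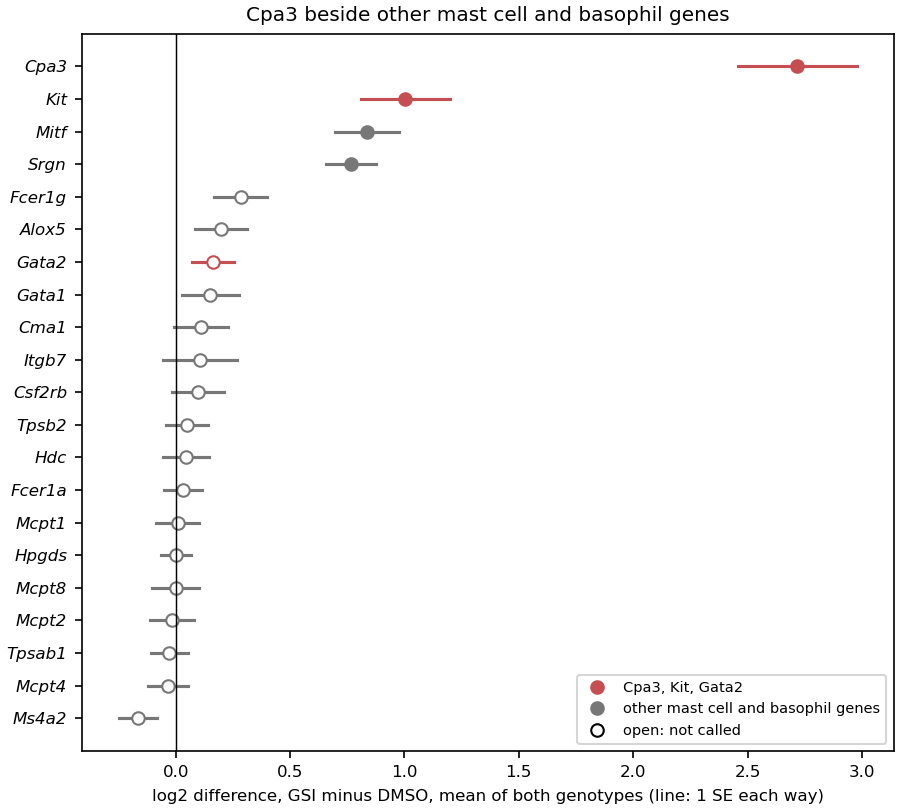
Log2 difference between GSI and DMSO, averaged over both genotypes, for Cpa3, Kit and Gata2 (red) and 18 other genes of mast cells and basophils (grey). Points are limma estimates, lines are 1 SE to each side and filled points have an adjusted p below 0.05; Cpa3 at 2.72 lies far from Fcer1a, Ms4a2, Cma1 and the Mcpt genes, which lie near 0.

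Genes of other lineages were read in the same way. The 5 defining markers of megakaryocytes and erythroid cells, the 7 of myeloid and dendritic cells and the 3 of natural killer cells lay below the median gene. Of 28 myeloid and dendritic genes 10 nonetheless rose on average, among them the lysozymes Lyz1 (2.23 ± 0.19, adjusted p = 0.000291) and Lyz2 (1.68 ± 0.19, adjusted p = 0.000678), and H2-Aa of MHC class II (2.15 ± 0.21, adjusted p = 0.000435). The share of all genes called as higher was 10.8%. The mean level of the 28 was between 5.23 and 5.52 with DMSO and between 5.59 and 5.87 with GSI in WT, and between 5.47 and 5.49 with DMSO and between 6.30 and 6.36 with GSI in IkL/L. It moved with the members' response to GSI, and its part in that response was not tested. Of 16 B lineage genes 3 rose on average (Cd79b, Vpreb1 and Bank1) and 1 fell (Pou2af1). Of their 5 defining markers 4 lay below the median gene, and the other, Vpreb1 of the surrogate light chain, rose by 1.80 ± 0.18 (adjusted p = 0.000462), from a mean of 6.63 to 8.07 in WT and from 6.74 to 8.90 in IkL/L. The part of these genes in the members' response was not tested either. Spi1, the myeloid factor among the members, stood in WT at 5.62 and 5.42 with DMSO and at 5.84 and 5.48 with GSI, and in IkL/L at 5.68 and 5.41 with DMSO and at 5.47 and 5.61 with GSI, with all 4 groups overlapping.

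Other progenitor genes moved in both directions. Of 27 measured, 7 rose on average (Lyl1, Tal1, Runx1, Etv6, Sox4, Ikzf2 and Angpt1) and 3 fell (Prdm16, Lmo4 and Egfl7), against 10.8% and 12.5% of all genes, with a list median of 0.21. Ikzf2, which encodes Helios of the Ikaros family, rose by 0.90 ± 0.20 (adjusted p = 0.0118), while Prdm16, a stem cell factor, changed by -1.0 ± 0.23 (adjusted p = 0.0142) and Lmo4, a LIM-only cofactor, by -0.97 ± 0.15 (adjusted p = 0.00293). In IkL/L 8 rose and 2 fell, with Etv6, an ETS repressor, up by 1.09 ± 0.16 (adjusted p = 0.0035) and Lyl1, a basic helix-loop-helix factor, up by 1.07 ± 0.25 (adjusted p = 0.024). These counts leaned on single arrays. The 7 became 3 without IkL/L DMSO replicate 1 and 4 without IkL/L GSI replicate 2, and without either of these arrays the 3 became 1. In IkL/L the 2 that fell became 0 without IkL/L DMSO replicate 1 or 2 or IkL/L GSI replicate 2, and 1 without IkL/L GSI replicate 1. The 8 became 2 without IkL/L DMSO replicate 1, without IkL/L DMSO replicate 2 or without IkL/L GSI replicate 2, and 4 without IkL/L GSI replicate 1.

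Between the genotypes under DMSO, 2 of these 27 progenitor genes were lower in IkL/L (1.03% of all genes were) and none was called as higher. The 2 became 0 without any 1 of the 4 DMSO arrays, and 1 lower with 1 higher without either IkL/L GSI array. Angpt1, which encodes angiopoietin-1, differed by -1.42 ± 0.19 (adjusted p = 0.0109) and Hoxa7, a homeobox factor, by -1.33 ± 0.25 (adjusted p = 0.04). Angpt1 stood in WT at 8.31 and 8.45 with DMSO and at 8.69 and 8.77 with GSI, and in IkL/L at 6.90 and 7.03 with DMSO and at 7.96 and 7.65 with GSI. Like Erg, it was lowest on the IkL/L DMSO arrays and rose with GSI in IkL/L, by 0.83 ± 0.19 (adjusted p = 0.0193). Under GSI Tal1, a stem cell and erythroid factor, was higher in IkL/L by 1.80 ± 0.20 (adjusted p = 0.00471) and Runx1, a core haematopoietic factor, by 0.92 ± 0.16 (adjusted p = 0.0295), while Hoxa7 was again lower, by -1.33 ± 0.25 (adjusted p = 0.0453). The 2 higher calls became 1 without any 1 of the 8 arrays, and the lower call was lost without any 1 array other than WT GSI replicate 2.

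Of 33 genes that carry or restrain signals of Kit and Flt3, 10 rose and 3 fell with GSI on average (10.8% and 12.5% of all genes did), with a list median of 0.07. Gab2, an adaptor that recruits PI3 kinase, stood in WT at 6.24 and 6.49 with DMSO and at 7.67 and 7.63 with GSI, and in IkL/L at 6.66 and 6.59 with DMSO and at 8.23 and 8.94 with GSI. Its GSI arrays were above its DMSO arrays in both genotypes. It rose by 1.96 ± 0.24 in IkL/L (adjusted p = 0.00199) and by 1.28 ± 0.24 in WT (adjusted p = 0.0241). The call of Gab2 in WT was lost without either WT DMSO array, WT GSI replicate 2 or either IkL/L DMSO array. The PI3 kinase subunit Pik3r1 rose on average by 1.11 ± 0.14 (adjusted p = 0.00111), the cytokine signalling inhibitor Socs3 by 1.31 ± 0.28 (adjusted p = 0.0118) and the adaptor Sla2 by 1.27 ± 0.26 (adjusted p = 0.00898). The 3 that fell, named after their values were seen, were the Ras pathway inhibitors Spred1 and Spred2 and the adaptor Sla. Kitl, the ligand of Kit, was also named outside the rule for its role, and its difference of -0.10 ± 0.38 was not called (adjusted p = 0.897). Without IkL/L GSI replicate 2 the 10 became 6. The 3 became 1 without WT DMSO replicate 2, either IkL/L DMSO array or IkL/L GSI replicate 2. It became 5 without WT GSI replicate 1.

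Across the 8 arrays Kit, Cd93, Erg, Nfe2 and Cpa3 followed each other closely, with Pearson correlations of 0.84 to 0.94 between pairs. Mef2c correlated with them at 0.37 to 0.75, Gata2 at 0.06 to 0.50, and Flt3, Spi1 and Bcl11a at -0.12 to 0.41. These values describe 8 arrays in 4 groups that share treatment and genotype, and carry no test. Among 4952 genes that span at least 1 on the log2 scale, the gene most like Erg was Prodh (r = 0.993), that most like Cd93 was Acpp (r = 0.992), that most like Nfe2 was Bphl (r = 0.992) and that most like Cpa3 was Arhgap25 (r = 0.99). For Kit it was Cpt1a (r = 0.988) and for Mef2c it was Zfyve21 (r = 0.979). Correlations above 0.9 were common, since 210 genes had r above 0.9 with Kit and 448 with Cpa3. For Flt3, Gata2, Spi1 and Bcl11a the nearest were Blvrb, Abcg2, Cdsn and Mc5r, with r between 0.918 and 0.961.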

How the data were processed

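The submitters' processing notes name RMA, without a version, and the deposited values are log2 expression made by the authors with it from Affymetrix arrays. RMA corrects background, normalizes arrays to 1 distribution and summarises probes. RNA was labelled in 2 cycles from different amounts that the labels do not tie to samples, so no batch could be formed. Groups came from the sample titles. The 45101 probe sets spanned 2.32 to 14.61, with array medians from 5.25 to 5.33 and replicate correlations from 0.975 to 0.993. Left out were 64 controls, 932 probe sets naming several genes and 9160 without a gene in the platform annotation used here. For 9010 genes with several probe sets the one with the highest mean was kept, and no dim probe set was removed.

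limma 3.58.1 in R 4.3.3 (lmFit, contrasts.fit, eBayes with trend) was fitted to 18193 genes with 4 group means, 4 residual and 4.11 prior degrees of freedom, 6 contrasts and two-sided tests. The fit was tested on simulated data. Tables and plots used Python 3.11.15, pandas 2.3.3 and matplotlib 3.10.9.

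The members and lists were chosen with earlier results of these data known. The members were always named, with up to 4 called genes of each list per contrast by size, or the 2 largest where fewer than 2 were called, defining markers, and the gene most correlated with each member. Alternatives were a replicate block, other probe set rules, filters, scalings and priors, covariates, fits of the compared arrays alone and leaving out each array.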

Additional observations from a re-analysis of the deposited data

Results flagged for a closer look

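Probe set 1457072_at of Bcl11a stood out because every array of one genotype moved one way with GSI and every array of the other moved the opposite way. Both WT GSI arrays (3.82 and 4.33) were below both WT DMSO arrays (4.71 and 5.38), and both IkL/L GSI arrays (3.57 and 3.46) were above both IkL/L DMSO arrays (2.88 and 3.11). The log2 response in IkL/L minus that in WT was 1.49, and limma did not call this difference over all probe sets (adjusted p = 0.699). The other 6 probe sets of Bcl11a were not set apart in this way. The share of all probe sets with such a pattern is not given here, so how unusual it is cannot be said. All 8 values of 1457072_at lay below the median gene, on a scale that began at 2.32.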

How the results depend on the processing

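Each of the 14 calls of a member kept its sign under every alternative run. Some of these fits, such as the replicate block, left the difference unchanged by design and could not turn a sign. In the fit of every probe set, the sign was read on the same probe set of each gene as in the main fit. The count of members called with GSI on average was 6, 5 to 6 without 1 array, 5 with the GAPDH covariate and 7 with every probe set or _x_at probe sets left out. In IkL/L it was 6, 4 to 6 without 1 array, and 5 and 7 in the same alternatives. In WT it was 1, and 0 to 3 without 1 array. It was 0 with the compared arrays alone, 2 after quantile normalization once more and 3 with genes above the median, the GAPDH difference or the stromal mean as a covariate. For the genotype under DMSO it was 1, and 0 to 2 without 1 array. It was 2 with every probe set, the compared arrays alone or _x_at probe sets left out, and 4 with the GAPDH or the stromal covariate. The counts for the interaction and the genotype under GSI stayed at 0 in every fit. With every probe set, a member counted as called when any of its probe sets was, a looser rule than in the other fits. The share of all features called differed between fits too. On average over the genotypes it was 23.3% in the main fit, 19.2% with every probe set and 23% with _x_at probe sets left out. For most alternatives it is not given here, so a member count may only follow the count over all genes. The labels do not say that a replicate number marks a shared animal, culture or day. Deviations of same-numbered arrays correlated at 0.562 to 0.71 among WT DMSO, WT GSI and IkL/L DMSO, and at -0.113 to 0.025 between these and IkL/L GSI. With the replicate number as a block the counts were 3 in WT, where Cd93 (adjusted p = 0.0145) and Nfe2 (0.0293) were added, and 2 under DMSO, where Cd93 (0.0141) was added, and the others did not change.

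Signs of uncalled differences turned in these fits. With the mean over probe sets, Bcl11a gave -0.0462 in WT, 0.35 in IkL/L, 0.39 for the interaction and -0.696 under DMSO (called, adjusted p = 0.0195), and Mef2c gave -0.12 under DMSO. Without _x_at probe sets Bcl11a gave 0.87 in IkL/L, 0.85 for the interaction and -1.14 under DMSO. With the GAPDH covariate, Spi1 gave 0.38 in IkL/L and 0.0614 for the genotype under GSI, Bcl11a 0.10 in IkL/L and Gata2 0.0087 for the interaction. With the stromal covariate, Bcl11a gave -0.000194 on average and Spi1 -0.0193 under DMSO. After quantile normalization Flt3 gave -0.0379 in IkL/L and Bcl11a -0.0397 on average, and after centring they gave -0.0389 and -0.0039. Without 1 array, Spi1 ranged from -0.0373 to 0.319 in WT, -0.135 to 0.127 in IkL/L, -0.0206 to 0.157 on average, -0.323 to 0.0334 for the interaction, -0.106 to 0.156 under DMSO and -0.297 to 0.0584 under GSI. Flt3 ranged from -0.0652 to 0.0757 in IkL/L and -0.0392 to 0.102 under GSI, Bcl11a from -0.0264 to 0.0837 on average, Gata2 from -0.107 to 0.102 for the interaction and Mef2c from -0.0895 to 0.249 under DMSO. Under GSI, Kit ranged from -0.354 to 0.158, Nfe2 from -0.478 to 0.736 and Cpa3 from -1.03 to 0.0592. The cause was not tested. With 2 arrays a group, and 19 of 27 probe sets below the median gene, small changes of dim genes may have been missed. No change was called for Flt3, Gata2 or Spi1.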
